A study of Mus musculus with 59 samples.

Results

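Saline-infused mice of an intravenous self-administration paradigm were set against saline-injected mice of 3 other paradigms. Ribonucleic acid had been sequenced from the ventral tegmental area (VTA) of male mice, and each sample was a library named for its paradigm and for cocaine or saline. Self-administration saline held 9 of the 59 libraries of the series, and its counterpart held 18: 6 of saline given acutely in the home cage, 6 of saline given chronically in the home cage, and 6 of saline in the cocaine-conditioning procedure. The same contrast was also made in cocaine libraries, which the saline comparison did not use: 15 of self-administration cocaine against 17 of acute (5), chronic (6) and conditioning (6) cocaine. Libraries were chosen by the name of their column in the deposited table, not by any measured value. The labels give no strain, age, dose, number of sessions, surgery, diet, time of day or interval before tissue collection. They name no batch of surgery, dissection, library preparation or sequencing either, so paradigm and batch cannot be told apart in any value below. Whether each sample came from its own mouse is not stated, so the tests weigh differences against a spread between libraries that may be technical.

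The VTA holds dopamine neurons that project to the striatum and cortex, intermingled with GABA and glutamate neurons and with glia. In self-administration procedures in general, a mouse carries an intravenous catheter and performs a response for each infusion, and a saline group controls for the surgery, the infusions and the training. Injected saline groups control for handling and the needle. Glucocorticoid hormones, released from the adrenal gland in stress and over the daily cycle, enter the brain and act through nuclear receptors that bind DNA at palindromic elements, so their target genes are a common readout of hormone exposure in brain tissue.

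Values are FPKM, a read density scaled to transcript length and library size, and differences are self-administration minus other saline in log2(FPKM + 1), given ± SE. For genes with low values such a difference is smaller than the true fold. A gene was called when its adjusted p was under 0.05 by limma, a linear model with a shared estimate of the spread, over the 13202 genes that averaged 1 FPKM or more. Read depth is unknown, and FPKM summed to 398577 to 452672 in self-administration saline libraries and to 418179 to 448587 in the other saline libraries. The first principal component of the 27 saline libraries held 40.4% of the variance, with scores of 21.4 to 38.5 in self-administration and −19.4 to −6.04 in the others. Self-administration saline libraries varied more among themselves: the median SD of a gene was 0.165, against 0.0878 in acute, 0.106 in chronic and 0.0928 in conditioning saline, and 9243 genes (70.0%) had a larger SD in self-administration than in each other group. The model used 1 spread per gene for both groups. Where the smaller group varied more, the SE can therefore be too small and the p too low. Libraries are numbered as in the deposited columns. Library 0 had the highest Pmch, a hypothalamic peptide gene, at 197 FPKM. Library 4 had 701 FPKM of growth hormone (Gh) and 98.9 of prolactin (Prl), both pituitary hormones that reached at most 3.17 and 1.69 FPKM in the other saline libraries. Without both libraries 7923 genes were called, against 7924 with them.

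Of the 13202 genes, 7924 (60%) were called, 4234 higher (32.1%) and 3690 lower (28%) in self-administration saline. Most differences were small, and the median of all genes was 0.02. A change of at least 2-fold was found for 44 genes that were higher (0.333%) and 199 that were lower (1.51%). In 467 genes (3.54%) each self-administration library lay above each other saline library, and in 661 (5.01%) each lay below. Beside the main contrast, those with each saline group, which share the 9 self-administration libraries, called 6143 genes (46.5%) against acute, 6322 (47.9%) against chronic and 6627 (50.2%) against conditioning saline, and 4973 (37.7%) were called in 1 direction in each of them and in the main contrast. Among themselves the acute, chronic and conditioning saline groups differed in 66 genes by an F test in limma, with 1365 at an unadjusted p under 0.05. With such a share of genes called, a list of genes is read below against 32.1% higher and 28% lower.

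Base composition moved with the contrast over the bins of the next paragraph. It did not do so for each gene: Npcd, named among the higher ones, has a transcript of 61.4% GC. The coding sequences of 4 genes picked for their GC content are printed as examples, which are no test of that trend. From the 15 genes named for the largest differences in each direction, they are the pair with the GC-richest transcripts among the lower ones and the pair with the GC-poorest among the higher ones, each given as its first 90 coding bases from the start codon, read from GRCm38, with G and C in capitals.
Nrtn: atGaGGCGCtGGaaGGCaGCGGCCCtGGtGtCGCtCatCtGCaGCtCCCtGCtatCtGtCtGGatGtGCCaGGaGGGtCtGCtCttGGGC
C1qtnf4: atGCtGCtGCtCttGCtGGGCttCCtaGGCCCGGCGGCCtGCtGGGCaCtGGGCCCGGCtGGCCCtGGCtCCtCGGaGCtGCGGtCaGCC
Sgk3: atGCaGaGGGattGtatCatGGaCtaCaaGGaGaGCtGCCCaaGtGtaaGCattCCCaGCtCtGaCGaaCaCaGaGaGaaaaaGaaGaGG
Pmch: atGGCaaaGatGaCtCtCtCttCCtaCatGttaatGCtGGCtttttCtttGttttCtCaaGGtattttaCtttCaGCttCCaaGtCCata
Nrtn (chromosome 17, 56751325 to 56757530, minus strand), which encodes the neurotrophic factor neurturin, has 72.1% G and C over its 588 coding bases. It was listed at 0 to 0.509 FPKM in self-administration saline with a median of 0, against 1.81 to 13.4 with a median of 7.41 in other saline. C1qtnf4 (chromosome 2, 90885860 to 90890525, plus strand), a secreted protein with C1q domains, has 70.5% over 981 coding bases. Its level was 0.611 to 3.72 FPKM with a median of 2.33 in self-administration saline, against 31.6 to 103 with a median of 60.9 in other saline. Neither gene's groups overlapped, and the differences were −2.84 ± 0.21 (adjusted p = 1.15e-11) for Nrtn and −4.18 ± 0.18 (adjusted p = 3.62e-16) for C1qtnf4. Sgk3 (chromosome 1, 9798107 to 9900845, plus strand), a kinase of the serum- and glucocorticoid-regulated family, has 42.4% over 1491 coding bases, and Pmch (chromosome 10, 88091072 to 88092375, plus strand) has 43.0% over 498. Sgk3 stood at 5.54 to 17.7 FPKM with a median of 9.09 in self-administration saline, against 2.16 to 3.23 with a median of 2.52 in other saline, without overlap (1.56 ± 0.12, adjusted p = 3.8e-12).

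Across 10 bins of genes by transcript GC content, the median difference was 0.11 in the lowest bin (31.2% to 42.6% GC) and −0.38 in the highest (58.6% to 83.1% GC). In the lowest bin 47.0% of genes were called higher and 9.43% lower. In the highest bin 3.38% were called higher and 76.4% lower. Transcript length ran the other way: the median was −0.13 in the shortest bin (61 to 1039 bases) and 0.12 in the longest (5732 to 123179 bases), where 51.7% were called higher. GC content and length together held 27.1% of the variance of the difference over the 12723 genes with an annotated transcript. Conditioning saline against both home-cage saline groups showed medians between −0.01 and 0.00 over the GC bins, and over the length bins medians of 0.04 in the shortest and −0.03 in the longest, opposite in sign to those of self-administration. Each library was therefore also corrected for its own smooth trend over GC content and length, and 7132 of 12723 genes (56.1%) were then called, 3867 higher (30.4%) and 3265 lower (25.7%). Genes lower by at least 2-fold then numbered 82 and genes higher by at least 2-fold 56. Differences after this correction are called corrected below. What moved the GC trend was not tested.

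**Figure D1:**
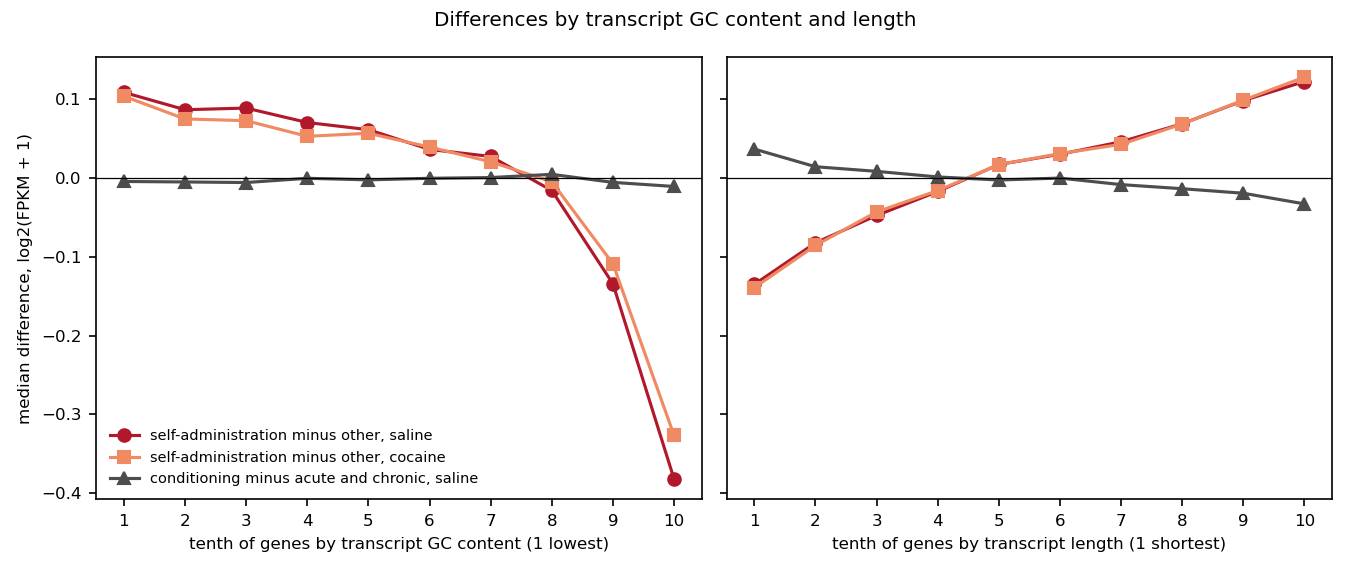
Median difference on the log2(FPKM + 1) scale (y axis) in each of 10 bins of genes by transcript GC content (left) and transcript length (right). Red circles are self-administration minus other saline, orange squares self-administration minus other cocaine, grey triangles conditioning minus acute and chronic saline. The red and orange lines run together, from 0.11 and 0.10 in the lowest GC bin to −0.38 and −0.33 in the highest, and the grey line stays near 0 over GC content.

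Glucocorticoid-responsive genes were higher in self-administration saline: 16 of 20 tested list members were called higher and 0 lower (32.1% and 28% of all genes), with a median difference of 0.96. Since 2 of the 20 passed the filter on low values only through self-administration saline, these counts are tilted upward. Of the 18 that averaged 1 FPKM or more in both groups 14 were higher and 0 lower. With no filter 15 of 20 were higher and 0 lower. After correction 18 of 20 were higher and 0 lower, with a median of 1.04. In 10 members each self-administration library lay above each other saline library (3.54% of all genes). Plin4 (chromosome 17, 56100591 to 56109803, minus strand), which encodes a coat protein of lipid droplets, was at 16.0 to 26.5 FPKM with a median of 19.5 in self-administration saline, against 0.365 to 3.31 with a median of 0.989 in other saline. The groups lay far apart, and the difference was 3.30 ± 0.13 (adjusted p = 2.15e-17; corrected 3.31). Fkbp5 (chromosome 17, 28399094 to 28517527, minus strand), a co-chaperone that lowers the hormone affinity of the glucocorticoid receptor, was at 17.8 to 34.7 FPKM with a median of 21.1 in self-administration saline, against 6.32 to 11.4 with a median of 7.07 in other saline. Its groups did not overlap either, and it differed by 1.53 ± 0.09 (adjusted p = 1.01e-14). Sult1a1, a sulfotransferase of phenols and catecholamines, differed by 2.21 ± 0.14, with 12.1 to 41.3 FPKM in self-administration saline, against 2.71 to 6.72 in other saline. Zbtb16, a zinc finger transcription factor, differed by 1.71 ± 0.15, with 8.19 to 13.9 FPKM in self-administration saline, against 1.56 to 7.39 in other saline. The highest of those other values came from conditioning library 0, which also held that group's highest Fkbp5. Hif3a, a subunit of hypoxia-inducible factors, differed by 1.38 ± 0.08.

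Further members showed a range of sizes. Cdkn1a, the cell cycle inhibitor p21, stood at 17.4 to 113 FPKM with a median of 42.7 in self-administration saline, against 4.66 to 18.7 with a median of 7.30 in other saline, so that the lowest self-administration library fell within the other saline range (2.44 ± 0.26, adjusted p = 1.68e-08). Against acute, chronic and conditioning saline, contrasts that share the self-administration libraries, its differences were 2.62, 2.89 and 1.80. Lcn2, a secreted binder of iron siderophores, spread most among self-administration libraries, from 1.37 to 63.1 FPKM with a median of 7.52, against 0 to 0.613 with a median of 0.0491 in other saline. Even the lowest self-administration library lay above those of other saline (3.11 ± 0.37, adjusted p = 1.04e-07). Arrdc2 (1.12), Sgk1 (0.81), Map3k6 (0.64), Errfi1 (0.53), Tsc22d3 (0.50), Per1 (0.29) and Nfkbia (0.25) were called higher by smaller amounts. Klf9 (0.03), Ddit4 (0.11), Mt2 (0.39) and Mt1 (−0.20) were not called, although Ddit4 and Mt2 were after correction, at 0.35 and 0.49. Nr3c1, the glucocorticoid receptor itself, was at 13.6 to 19.4 FPKM in self-administration saline, against 11.9 to 15.5 in other saline, with overlap (0.28 ± 0.05, adjusted p = 4.31e-05; corrected 0.13).

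The promoter of Sgk1, a kinase that regulates ion channels, is shown because it carried the palindrome that glucocorticoid receptors bind. The 250 bases before the start of the gene (RefSeq table, GRCm38.p6, chr10:21993640-21993889, plus strand) have the palindrome in capitals, with 174 bases between it and the start.
Sgk1 promoter: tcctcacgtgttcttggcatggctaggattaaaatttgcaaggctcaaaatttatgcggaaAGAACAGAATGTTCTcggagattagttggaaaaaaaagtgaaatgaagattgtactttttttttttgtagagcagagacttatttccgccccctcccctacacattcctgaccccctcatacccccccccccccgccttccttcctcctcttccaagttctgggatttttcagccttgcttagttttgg
The palindrome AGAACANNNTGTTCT, which reads the same on both strands, was found in 3 of 32851 promoter windows of 250 bases before to 50 after a start (0.00913%) and in 1 of the 18 glucocorticoid list members with a window. A single TGTTCT element on either strand, which the palindrome contains, was in 6233 windows (19.0%) and in 3 of the 18 members: Sgk1, Sult1a1 and Tsc22d3. Sgk1 was at 157 to 262 FPKM with a median of 200.5 in self-administration saline, against 62.0 to 173 with a median of 120.4 in other saline. The lowest self-administration libraries lay within the range of the others, and the difference was 0.81 (corrected 0.76).

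**Figure D2:**
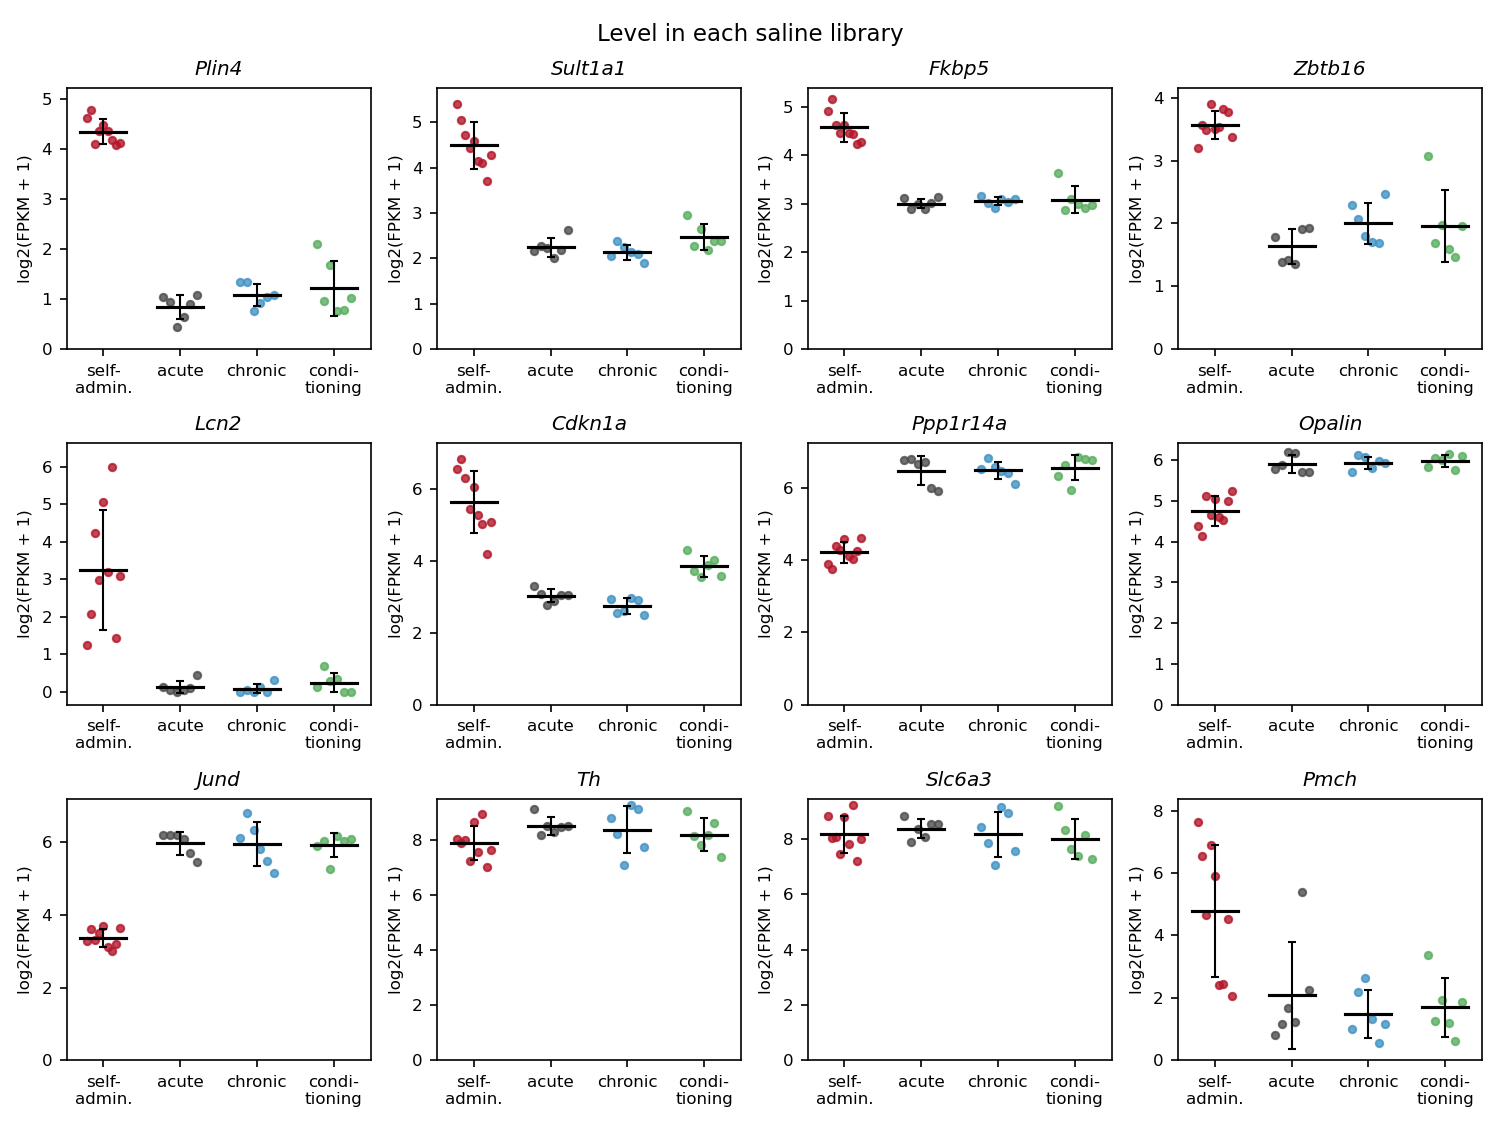
Level in each saline library on the log2(FPKM + 1) scale (y axis) for 12 genes, by paradigm (x axis: self-administration 9 libraries, acute, chronic and conditioning 6 each). Points are libraries, horizontal lines means and bars 1 SD. Plin4, Sult1a1, Fkbp5, Zbtb16 and Lcn2 lie above the other groups, Ppp1r14a, Opalin and Jund below them, and Th and Slc6a3 overlap with each group.

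Genes of inflammation and the acute phase had 9 of 19 listed members past the filter on low values, of which 8 were called higher and 1 lower, with a median of 0.69 (corrected 0.59, with 8 higher and 1 lower). Since 4 of the 9 (Lcn2, Icam1, Osmr and Ptgs2) passed only through their level in self-administration saline, these counts are tilted upward. Of the 5 that averaged 1 FPKM or more in both groups 4 were higher and 1 lower, and with no filter 10 of 19 were higher and 1 lower. Icam1, an adhesion molecule for leukocytes on vessel walls, was at 1.64 to 13.3 FPKM with a median of 3.47 in self-administration saline, against 0.513 to 0.904 with a median of 0.696 in other saline. The groups did not overlap, and the difference was 1.55 ± 0.17 (adjusted p = 1.66e-08). Serpina3n, an acute-phase protease inhibitor of astrocytes, varied little within groups, with 15.9 to 20.7 FPKM in self-administration saline, against 10.3 to 13.8 in other saline (0.54 ± 0.05, adjusted p = 6.39e-10). The cyclooxygenase Ptgs2 (1.06), complement C4b (0.83), the oncostatin M receptor Osmr (0.69) and Vcam1 (0.53) were also higher, and the transcription factor Cebpd was lower (−0.52). Lcn2 and Nfkbia are in this list as well as in the glucocorticoid list. Lcn2 is also made by neutrophils, and S100a8 and S100a9, calcium-binding proteins abundant in these cells, were named after their values were seen. S100a8 was at 0.192 to 35.9 FPKM with a median of 2.85 in self-administration saline, against 0 to 4.31 with a median of 0.425 in other saline (1.61 ± 0.43, adjusted p = 0.00237). S100a9 was at 0.169 to 25.7 FPKM with a median of 2.50 in self-administration saline, against 0 to 3.90 with a median of 0.235 in other saline (1.26 ± 0.41, adjusted p = 0.0100). Both were highest in library 4 and next in library 6, the pair of libraries with the highest Lcn2, and the part of neutrophils in these values was not tested. Interferon and histocompatibility genes were called higher in 11 and lower in 1 of 19, with a median of 0.25 (corrected 0.30). Here 2 of the 19 passed the filter only through self-administration saline, which tilts the count upward. Of the 17 that averaged 1 FPKM or more in both groups 9 were higher and 1 lower, and with no filter 11 of 24 were higher and 1 lower. In this list Cd74, the invariant chain of class II molecules, was at 1.52 to 13.2 FPKM in self-administration saline, against 0.639 to 7.66 in other saline (1.19 ± 0.27, adjusted p = 5.4e-04). B2m, the light chain of class I molecules, was at 122 to 213 FPKM in self-administration saline, against 106 to 170 in other saline (0.34 ± 0.08). The interferon-induced genes Isg15 (−0.03), Irf7 (0.03) and Ifit1 (0.07) were not called.

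Genes that fasting induces in peripheral tissues, with insulin targets, were called higher in 9 and lower in 3 of 14, with a median of 0.31 (corrected 0.24). Pdk4, which restrains the entry of pyruvate into mitochondria and is in the glucocorticoid list too, was at 7.40 to 18.9 FPKM with a median of 12.1 in self-administration saline, against 3.23 to 6.21 with a median of 4.42 in other saline. Its groups did not overlap (1.26 ± 0.11, adjusted p = 9.06e-11). The difference was 1.40 against acute, 1.40 against chronic and 1.00 against conditioning saline, contrasts that share the self-administration libraries. The lipase Pnpla2 (0.77), the thioredoxin inhibitor Txnip (0.73), the lipase inhibitor Angptl4 (0.70), the uncoupling protein Ucp2 (0.65) and Sesn1 (0.60) were higher as well. Igfbp2 (−1.08), Irs2 (−0.41) and the ubiquitin ligase Fbxo32 (−0.39) were lower. Receptors for feeding and metabolic hormones were higher in 5 and lower in 2 of 13. In that list 1 member passed the filter on low values only through self-administration saline. Of the 12 that averaged 1 FPKM or more in both groups 5 were higher and 2 lower, and with no filter 6 of 15 were higher and 2 lower. The neuropeptide Y receptor Npy1r was at 3.59 to 6.23 FPKM in self-administration saline, against 2.61 to 3.99 in other saline (0.51 ± 0.07), and the insulin receptor Insr differed by 0.37 ± 0.04. Rbm3, an RNA-binding protein induced by cold, was at 114 to 241 FPKM in self-administration saline, against 38.5 to 72.5 in other saline, without overlap (1.45 ± 0.14, adjusted p = 7.03e-10).

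Clock genes did not move as one. Of 21 members 14 were called higher and 3 lower, with a median of 0.22, and after correction 9 were higher and 2 lower, with a median of 0.09. Dbp, a clock output transcription factor with strong daily rhythm, was at 9.87 to 23.5 FPKM with a median of 14.7 in self-administration saline, against 22.2 to 77.4 with a median of 41.4 in other saline. The highest self-administration library overlapped with the lowest of the others (−1.35 ± 0.16, adjusted p = 6.97e-08; corrected −0.96). Nr1d1, the repressor REV-ERBα, was at 13.3 to 31.8 FPKM in self-administration saline, against 30.1 to 45.2 in other saline (−0.59). Members that were higher included the repressors Cry1 (0.65), Per2 (0.56), Cry2 (0.37) and Per1 (0.29; corrected 0.55) and the Dbp relative Tef (0.46 ± 0.05, adjusted p = 2.93e-09), which is transcribed with a rhythm like that of Dbp in many tissues. The activator Arntl (0.09) was not called, and the activator Clock was called at 0.17 but not after correction (−0.00). The time of day of collection is not in the labels, so it cannot be told apart from paradigm.

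Immediate early genes went both ways. Of 24 tested members 5 were called higher and 9 lower, and without libraries 0 and 4 the list had 9 higher and 9 lower, Egr1 (0.62), Nr4a1 (0.35), Nr4a3 (0.40) and Nptx2 (0.34) being higher there. Of the 24, 1 passed the filter on low values only through self-administration saline and 1 only through other saline, which tilts the counts. Of the 22 that averaged 1 FPKM or more in both groups 4 were higher and 8 lower. With no filter 4 of 26 were higher and 10 lower. In 4 tested members each self-administration library lay below each other saline library (5.01% of all genes). Those 4 were the AP-1 subunits Jund, Junb and Jun, and Ier2. Jund was at 7.03 to 11.9 FPKM with a median of 8.86 in self-administration saline, against 34.4 to 111 with a median of 66.0 in other saline. The difference was −2.58 ± 0.14 (adjusted p = 3.62e-14) and −1.54 after correction, its transcript having 67.1% GC. Junb was at 0.785 to 3.70 FPKM in self-administration saline, against 5.78 to 18.6 in other saline (−1.998 ± 0.185; corrected −1.39). Jun was at 4.81 to 7.91 FPKM in self-administration saline, against 13.4 to 21.6 in other saline (−1.29 ± 0.08; corrected −1.25). Their partner Fos was at 7.96 to 20.8 FPKM in self-administration saline, against 5.01 to 23.8 in other saline, and was not called (0.13), nor were Fosb (0.11), Egr1 (0.41), Nr4a1 (0.27) or Dusp1 (0.12). Arc, a synaptic capsid-like protein, was lower (−0.83; corrected −0.57). Egr4 was lower as deposited (−0.90) and not called after correction (0.21). The 5 members that were higher were Fosl2 (0.75; corrected 0.62), Cyr61 (0.36), Egr3 (0.29), Btg2 (0.29) and Homer1 (0.23).

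Myelin and oligodendrocyte genes were lower: 19 of 22 were called lower and 0 higher, with a median of −0.58, and after correction 18 were lower and 1 higher, with a median of −0.47. In these bulk samples fewer cells of a type and less RNA per cell cannot be told apart, here and for the cell types below. Ppp1r14a, an inhibitor of myosin phosphatase enriched in oligodendrocytes, was at 12.5 to 23.5 FPKM with a median of 18.2 in self-administration saline, against 59.6 to 115 with a median of 97.2 in other saline. Opalin, a membrane protein of oligodendrocytes, was at 16.6 to 36.7 FPKM with a median of 24.2 in self-administration saline, against 50.9 to 72.7 with a median of 60.7 in other saline. Both were separated without overlap, by −2.30 ± 0.12 (adjusted p = 1.01e-14) and −1.19 ± 0.10 (adjusted p = 3.66e-11). Gjb1, a connexin of myelin, differed by −0.998 ± 0.088. The structural genes were lower by less, Mag by −0.69, Mog by −0.49 and Mbp by −0.46, and Mbp overlapped, with 2009 to 4844 FPKM in self-administration saline, against 3123 to 4943 in other saline. Mobp (−0.00) and Mal (−0.01) were not called, and Myrf, the transcription factor that drives myelination, was at 0.07 (corrected 0.29, then called higher).

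In the oligodendrocyte precursor list 8 of 14 were lower and 2 higher, with a median of −0.23 (corrected −0.09). Among those that were lower were the transcription factors Olig1 (−1.44 ± 0.09, adjusted p = 4.59e-14; corrected −0.98) and Olig2 (−0.99), Bcas1 (−0.83 ± 0.07) and Enpp6 (−0.76), which mark newly formed oligodendrocytes, and the receptor Gpr17 (−0.40). Olig1 was at 48.0 to 89.7 FPKM in self-administration saline, against 133 to 218 in other saline. The receptor Pdgfra, which marks precursors, was higher (0.27; corrected 0.17), as was Vcan (0.24), and Cspg4 was at −0.22 (corrected −0.02).

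Microglial genes were lower in 15 and higher in 1 of 21, with a median of −0.31 (corrected −0.24, with 13 lower and 1 higher). Fcrls, an Fc receptor-like protein of resident microglia, was at 1.86 to 5.28 FPKM with a median of 3.89 in self-administration saline, against 6.43 to 9.37 with a median of 7.20 in other saline, without overlap (−0.91 ± 0.10, adjusted p = 4.79e-09). The lipid receptor Trem2 was at 3.40 to 7.20 FPKM in self-administration saline, against 6.69 to 10.8 in other saline (−0.57 ± 0.08; corrected −0.29). The homeostatic genes P2ry13 (−0.40), Tmem119 (−0.35), Cx3cr1 (−0.31) and P2ry12 (−0.29) were lower, though Tmem119 was at −0.05 after correction and then not called. C1qc was lower before and after correction (−0.50 ± 0.07; corrected −0.23), whereas its partners C1qa (−0.40) and C1qb (−0.24) were both at 0.02 after it. Csf1r (0.16) and Ctss (−0.05) were not called, and the lysosomal membrane protein Laptm5 was higher (0.31).

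Astrocyte genes went both ways, with 10 of 21 higher and 4 lower (corrected 11 and 5). The connexin Gjb6 was at 51.0 to 83.6 FPKM with a median of 61.7 in self-administration saline, against 33.1 to 47.3 with a median of 36.6 in other saline (0.78 ± 0.07, adjusted p = 1.73e-10). Angiotensinogen, Agt (0.81), the glutamate transporter Slc1a3 (0.64 ± 0.06), the growth factor receptor Fgfr3 (0.52) and the glycolytic enzyme Aldoc (0.42) were higher too. The fatty acid-binding protein Fabp7 was at 17.0 to 33.3 FPKM in self-administration saline, against 39.7 to 75.2 in other saline (−1.12 ± 0.10), and Id3 (−0.98), S100b (−0.58) and the water channel Aqp4 (−0.43) were lower. Gfap was at 18.9 to 174 FPKM in self-administration saline, against 16.6 to 107 in other saline, and was not called (0.26). Endothelial and pericyte genes were called higher in 7 and lower in 7 of 23, with a median of −0.01. The surface proteins Ly6a (0.83 ± 0.09) and Ly6c1 (0.57 ± 0.07) were higher without overlap, and the tight junction gene Cldn5 was lower (−0.63; corrected −0.16, not called), while Pecam1 (0.12), Flt1 (0.11) and Cdh5 (−0.11) were not called.

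**Figure D3:**
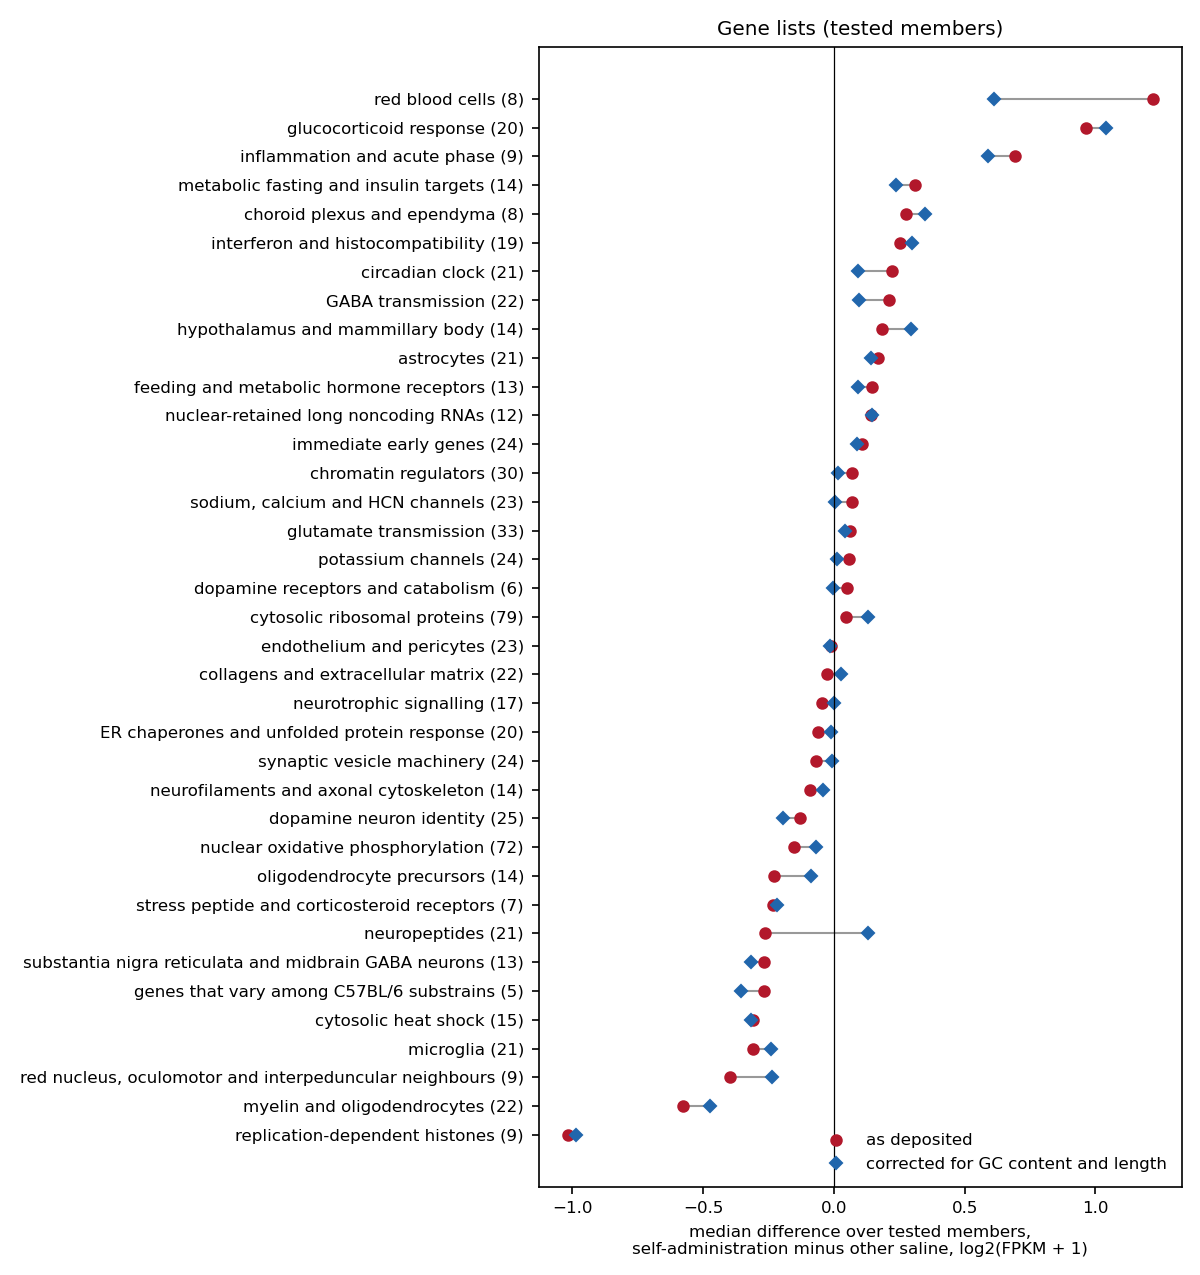
Median difference (x axis, log2(FPKM + 1) scale, self-administration minus other saline) over the tested members of each described gene list with at least 5 of them (y axis, number of tested members in brackets). Red circles are values as deposited and blue diamonds values corrected for GC content and length. Of the lists drawn, red blood cell, glucocorticoid and inflammation lists lie furthest to the right and histone and myelin lists furthest to the left, and the neuropeptide list moves across 0.

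Markers of tissue around the VTA were measured because dissections can differ. Pmch, the precursor of melanin-concentrating hormone made in the lateral hypothalamus, was at 3.15 to 197 FPKM with a median of 24.3 in self-administration saline, against 0.463 to 41.4 with a median of 1.44 in other saline. The groups overlapped and the difference was 3.04 ± 0.62 (adjusted p = 1.7e-04), or 2.47 without libraries 0 and 4. Parpbp, which overlaps Pmch by 944 bases on the opposite strand, differed by 1.70 ± 0.35, and since the strand setting is not stated the reads of the pair cannot be told apart. Hcrt, the orexin precursor made in the same region, was at 0.136 to 14.9 FPKM in self-administration saline, against 0 to 7.09 in other saline (1.11; corrected 1.60). The hypothalamus and mammillary body list was called higher in 6 and lower in 2 of 14, and without libraries 0 and 4 in 2 and 2. In that list 3 members passed the filter only through self-administration saline, and with no filter 3 of 19 were higher and 3 lower. The mean log2(FPKM + 1) of the list ran from 2.11 to 3.14 in self-administration saline and from 1.84 to 3.17 in other saline. Lhx5, a transcription factor, was at 1.42 to 3.92 FPKM in self-administration saline, against 4.37 to 6.92 in other saline, without overlap (−0.90 ± 0.08; corrected −0.60). In the list for red nucleus, oculomotor and interpeduncular neighbours 5 of 9 were lower and 1 higher, the higher one being Tac2, neurokinin B (1.35 ± 0.32). The transcription factor Pou4f1 (−0.89), osteopontin, Spp1 (−0.79), and the heavy neurofilament Nefh (−0.95) were among the lower ones. Of the stress peptide and corticosteroid receptor list 2 of 7 were higher and 3 lower, with a median of −0.23, and Crhr1, a receptor of corticotropin-releasing factor, differed by −0.47. Ucn in that list, urocortin, which neurons of the Edinger-Westphal nucleus make, was at 0.153 to 12.9 FPKM with a median of 1.88 in self-administration saline, against 0.290 to 235 with a median of 55.9 in other saline. The groups overlapped (−3.41 ± 0.75, adjusted p = 3.7e-04; corrected −2.40).

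Of the pituitary list, 3 of 7 genes were tested and none was called by limma: Gh (1.19), Prl (0.71) and Pomc (−0.27). Library 4 was the highest for each, with 109.5 FPKM of Pomc, while the other 8 self-administration libraries had 0.436 to 1.43 FPKM of Pomc, against 1.78 to 3.17 in other saline. Without libraries 0 and 4 Pomc was lower (−0.86, adjusted p = 1.71e-10), and Gh (0.22) and Prl (−0.01) were not called. Serotonin markers had 4 of 8 tested members, with 1 higher and 1 lower, and the forebrain list 7 of 16 tested, with 2 higher and 1 lower. Choroid plexus and ependyma had 8 of 16 tested, 4 higher and 1 lower. The lower one was Foxj1, a transcription factor of motile cilia (−0.72 ± 0.12; corrected −0.26), and the higher ones were Tmem212 (0.92), Prlr (0.47), Rsph1 (0.27) and Clic6 (0.25). Since 1 of the 8 passed the filter only through self-administration saline, that count is tilted upward. Of the 7 that averaged 1 FPKM or more in both groups 3 were higher and 1 lower, and with no filter 4 of 16 were higher and 1 lower. Vessel and meningeal smooth muscle and fibroblast genes were higher in 3 and lower in 2 of 12, prostaglandin D synthase, Ptgds, by 0.70 and the collagen Col1a1 by −0.52. In that list 2 members passed the filter only through other saline, which tilts the count downward. Of the 10 that averaged 1 FPKM or more in both groups 3 were higher and 1 lower, and with no filter 2 of 16 were higher and 3 lower. The part of dissection in these differences was not tested. Genes known to vary among C57BL/6 substrains were called higher in 2 and lower in 3 of 5. Nnt, a mitochondrial transhydrogenase that is partly deleted in C57BL/6J mice, was at 4.50 to 6.25 FPKM in self-administration saline, against 5.46 to 7.54 in other saline (−0.29 ± 0.05), while Wdfy1, an endosomal protein, differed by 0.35 ± 0.05.

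Of 4 markers of dopamine neurons 0 were called by limma, and 0 had an unadjusted p under 0.05. Th, tyrosine hydroxylase, was at 128 to 493 FPKM with a median of 240 in self-administration saline, against 135 to 620 with a median of 337 in other saline. The groups overlapped nearly throughout and the difference was not called (−0.48 ± 0.25, adjusted p = 0.0979). It was called, at −0.61 and −0.55, without self-administration library 6 and without chronic library 2, and at −0.62 with libraries weighted by quality. The dopamine transporter Slc6a3 (−0.02 ± 0.26), the vesicular transporter Slc18a2 (−0.05 ± 0.25) and the autoreceptor Drd2 (−0.06 ± 0.17) were not called. Slc6a3 was at 146 to 608 FPKM in self-administration saline, against 133 to 597 in other saline, so Th and Slc6a3 marked dopamine neurons in each library. Of the 25 identity genes 7 were lower and 1 higher, with a median of −0.13 (corrected −0.19, with 7 and 1), and the share that was lower is near that over all genes (28%). Since 1 of the 25, Pitx3, passed the filter on low values only through other saline, the count is tilted downward. Of the 24 that averaged 1 FPKM or more in both groups 6 were lower and 1 higher, and with no filter 6 of 25 were lower and 1 higher.

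Pitx3, a transcription factor required for nigral dopamine neurons, was at 0.236 to 1.27 FPKM with a median of 0.647 in self-administration saline, against 2.73 to 18.7 with a median of 9.61 in other saline. Its groups did not overlap, and the difference of −2.58 ± 0.22 (adjusted p = 2.34e-10) was −1.40 after correction, its transcript having 68.3% GC. The engrailed genes En2 (−1.26 ± 0.23; corrected −1.20) and En1 (−1.12; corrected −0.94), Foxa2 (−0.71 ± 0.09; corrected −0.57) and Lmx1b (−0.61) were lower, as was Gch1, which makes the cofactor of Th (−0.59). En1 was at 5.39 to 21.1 FPKM in self-administration saline, against 8.44 to 44.6 in other saline. Lmx1a was higher (0.36), and Nr4a2 (−0.13), Ddc (−0.03), Otx2 (−0.00) and Aldh1a1 (−0.11) were not called. Dopamine receptors and catabolic enzymes were called higher in 3 and lower in 2 of 6 (2 and 2 after correction). Maob (0.41 ± 0.07), Drd1 (0.52 ± 0.10) and Maoa (0.16) were higher, and Aldh2 (−0.49) was among the lower ones. Drd1 passed the filter on low values only through self-administration saline, with 0.808 to 2.25 FPKM there, against 0.429 to 1.62 in other saline. In neurotrophic signalling, where 5 of 17 were higher and 2 lower, Ntrk2, the receptor of brain-derived neurotrophic factor, varied little, with 142 to 163 FPKM in self-administration saline, against 103 to 120 in other saline (0.45 ± 0.03, adjusted p = 6.67e-13; corrected 0.39). Bdnf differed by 0.24 (corrected 0.12, not called). Of the 17 neurotrophic genes 1 passed the filter only through other saline, which tilts the count downward. Of the 16 that averaged 1 FPKM or more in both groups 5 were higher and 1 lower, and with no filter 3 of 20 were higher and 2 lower.

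Genes of GABA transmission were called higher in 16 and lower in 2 of 22, with a median of 0.21; after correction 12 were higher and 3 lower, with a median of 0.10. Gabrg1, a subunit of GABA-A receptors, was at 16.3 to 23.7 FPKM with a median of 19.0 in self-administration saline, against 11.2 to 16.2 with a median of 12.8 in other saline. The groups did not overlap (0.50 ± 0.05, adjusted p = 6.68e-09; corrected 0.37). The receptor subunit Gabrq (0.48) and the synthetic enzymes Gad1 (0.28) and Gad2 (0.21) were higher. Slc32a1, which loads GABA into vesicles, went against them, with 30.2 to 63.2 FPKM in self-administration saline, against 62.8 to 101 in other saline (−0.83 ± 0.09; corrected −0.33). It is also in the list of substantia nigra reticulata and midbrain GABA neurons, of which 7 of 13 were lower and 3 higher, among them the transcription factors Nkx2-2 (−0.93 ± 0.11) and Gata3 (−0.44) and the calcium buffer Pvalb (−0.65). Since 1 of the 13 passed the filter on low values only through other saline, the count is tilted downward. Of the 12 that averaged 1 FPKM or more in both groups 6 were lower and 3 higher, and with no filter 7 of 13 were lower and 3 higher.

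Glutamate genes were split, with 12 of 33 higher and 9 lower. The postsynaptic scaffolds Shank1 (−0.79 ± 0.07; corrected −0.21) and Shank3 (−0.66 ± 0.06; corrected −0.20) were lower without overlap, and glutamine synthetase Glul was higher (0.45; corrected 0.40). Grin2d and Grik5, receptor subunits, were at −0.60 and −0.42 as deposited and at 0.18 and 0.10 after correction, so their direction turned. Neuropeptide genes were higher in 5 and lower in 8 of 21, with a median of −0.27 that became 0.13 after correction, with 5 higher and 4 lower. Without libraries 0 and 4 the list had 1 higher and 10 lower. In that list 2 members passed the filter on low values only through other saline, which tilts the count downward. Of the 19 that averaged 1 FPKM or more in both groups 5 were higher and 7 lower, and with no filter 1 of 23 was higher and 7 lower. Cck, cholecystokinin, which many VTA dopamine neurons also make, was at 36.0 to 94.0 FPKM with a median of 43.9 in self-administration saline, against 84.3 to 222 with a median of 134 in other saline. The groups overlapped through library 8 (−1.48 ± 0.15, adjusted p = 2.78e-09; corrected −1.15). Somatostatin, Sst, was lower (−0.94) and prodynorphin, Pdyn, higher (0.54). Neuropeptide W, Npw, was at −0.89 ± 0.12 as deposited and 0.20 after correction, no longer called.

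Channels and release machinery had both directions. Potassium channels were higher in 8 and lower in 4 of 24, with Kcnk2 at 0.44 ± 0.06 and Kcnc1 at −0.56 ± 0.07. Sodium, calcium and HCN channels were higher in 8 and lower in 7 of 23. Cacng2, which traffics AMPA receptors, was at 14.8 to 19.0 FPKM in self-administration saline, against 21.4 to 27.8 in other saline (−0.56 ± 0.04, adjusted p = 1.19e-12; corrected −0.69). The pacemaker channel Hcn2 was at 48.3 to 95.0 FPKM in self-administration saline, against 102 to 164 in other saline, at −0.92 ± 0.09 as deposited but −0.13 and not called after correction. Synaptic vesicle genes were higher in 5 and lower in 6 of 24, with Vamp2 at 0.37 ± 0.05 and Unc13a at −0.43 ± 0.05. Of neurofilament and axonal genes 7 of 14 were lower and 1 higher. Nefl, the light neurofilament, was at 145 to 267 FPKM with a median of 155 in self-administration saline, against 248 to 796 with a median of 466 in other saline, with slight overlap (−1.39 ± 0.19; corrected −1.45). Nefl overlaps Nefm in the annotation, on opposite strands.

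Cytosolic heat shock genes were lower in 10 and higher in 0 of 15, with a median of −0.31 (corrected −0.32, with 9 and 0). Cryab, a small heat shock protein abundant in oligodendrocytes, was at 83.9 to 249 FPKM in self-administration saline, against 174 to 293 in other saline (−0.85 ± 0.13). The major chaperone Hsp90aa1 was at 441 to 574 FPKM in self-administration saline, against 517 to 786 in other saline (−0.32 ± 0.05; corrected −0.42), and Hspa8 differed by −0.29. Chaperones of the endoplasmic reticulum were higher in 6 and lower in 7 of 20, with Herpud1 higher (0.40 ± 0.04) and the stress transcription factor Atf4 lower (−0.27 ± 0.05). Nuclear genes of oxidative phosphorylation were lower in 37 and higher in 3 of 72, with a median of −0.15. After correction 32 were lower and 13 higher, with a median of −0.07. Uqcrq, a subunit of complex III, was at 72.6 to 141 FPKM with a median of 107 in self-administration saline, against 274 to 371 with a median of 344 in other saline. The groups lay far apart (−1.70 ± 0.08, adjusted p = 3.54e-16; corrected −1.61). Ndufa13 and Atp5d, subunits of complexes I and V, both differed by −0.77 as deposited and by −0.30 and −0.22 after correction.

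Ribosomal protein genes were higher in 27 and lower in 22 of 79. The balance depended on the setting, with 43 higher and 14 lower after correction but 23 higher and 26 lower without libraries 0 and 4, and in cocaine libraries, self-administration against the others, 20 were higher and 30 lower. The stalk proteins Rplp1 (−0.96 ± 0.08; corrected −0.66) and Rplp2 (−0.85 ± 0.09; corrected −0.68) were lower without overlap, Rplp1 with 435 to 848 FPKM in self-administration saline, against 1037 to 1334 in other saline. Replication-dependent histone genes, whose mature messages end in a stem-loop and lack a poly(A) tail, were lower in 8 and higher in 0 of 9 tested (19 were listed), with a median of −1.02 (corrected −0.99). Of the 9, 4 passed the filter only through other saline, which tilts these values downward, and with no filter 11 of 18 were lower and 0 higher. Hist3h2a was at 5.48 to 17.7 FPKM in self-administration saline, against 30.6 to 55.9 in other saline (−1.83 ± 0.13, adjusted p = 1.6e-12). Hist1h4h (−1.59), Hist1h4i (−1.46), Hist1h1c (−1.38) and Hist3h2ba (−1.02 ± 0.08) were lower too, and Hist2h2be was not called (0.08). Long noncoding RNAs kept in the nucleus were higher in 5 and lower in 0 of 12, Peg13 by 0.36 ± 0.03. On the same strand Hist3h2a overlaps Trim17 by 2146 bases and Peg13 overlaps Trappc9 by 4725, so their values may hold reads of those genes. Chromatin regulators were higher in 14 and lower in 6 of 30. Among those called lower was the deacetylase Hdac5 (−0.61 ± 0.06; corrected −0.22). Spliceosome genes were higher in 11 and lower in 6 of 30, and proteasome genes in 11 and 3 of 31 (17 and 2 after correction, 9 and 6 without libraries 0 and 4). Sterol synthesis genes were higher in 2 and lower in 6 of 21, mevalonate kinase, Mvk, by −0.40 (corrected −0.06). Extracellular matrix genes were higher in 6 and lower in 6 of 22, among them fibronectin, Fn1 (0.68), Sparc (0.59) and the proteoglycan Bcan (−0.38; corrected 0.01). In that list 1 member passed the filter only through other saline, which tilts the count downward. Of the 21 that averaged 1 FPKM or more in both groups 6 were higher and 5 lower, and with no filter 8 of 28 were higher and 5 lower. Sex-linked genes were higher in 3 and lower in 0 of 4, with a median of 0.24, and after correction 2 were higher and 1 lower, with a median of 0.12.

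Scand1, a SCAN domain protein, had the largest negative difference of the genes tested. It was at 0 to 0.354 FPKM with a median of 0.159 in self-administration saline, against 13.0 to 103 with a median of 56.3 in other saline (−5.35 ± 0.25, adjusted p = 4.78e-15; corrected −4.11). Pcsk1n, which encodes the prohormone convertase inhibitor proSAAS, was at 3.83 to 22.3 FPKM with a median of 9.32 in self-administration saline, against 129 to 578 with a median of 343 in other saline (−4.69 ± 0.27, adjusted p = 1.3e-13; corrected −4.51). Neither gene's groups overlapped, and Scand1 overlaps Cnbd2 on the opposite strand. Among microRNA loci, 2 of 72 tested were higher and 4 lower. Mir1249 lies within another annotated transcript on the same strand, so its values may hold fragments of that transcript, and it is shown because it had the largest negative difference among the small RNA and predicted loci. Its mature arm (RefSeq table, GRCm38.p6, chr15:84951545-84951566, minus strand) has its seed, bases 2 to 8, in capitals.
mmu-miR-1249-3p: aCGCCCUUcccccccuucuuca
Mir1249 was at 0 to 50.7 FPKM with a median of 0 in self-administration saline, against 33.6 to 252 with a median of 54.2 in other saline (−5.08 ± 0.58, adjusted p = 5.32e-08; corrected −4.53). It was listed at 0 in 7 of the 9 self-administration libraries, and library 3, with the value of 50.7, lay within the range of the others.

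A pair of genes with near-identical copies had the largest positive differences of those tested, Atp6v0c-ps2 and Hba-a2, so the sums over the copies were computed as well. Atp6v0c-ps2 (chromosome 6, 37806086 to 37806550, plus strand) is annotated as a processed pseudogene of Atp6v0c (chromosome 17, 24163866 to 24169702, minus strand), which encodes the proton-conducting ring of the vacuolar ATPase. The transcript matched the coding sequence at 464 of 465 aligned bases (99.8%). Alpha globin genes Hba-a2 and Hba-a1, on chromosome 11, matched at 428 of 429 coding bases (99.8%). The windows that end in the mismatch of each pair are shown, with the differing base in capitals.
Atp6v0c-ps2: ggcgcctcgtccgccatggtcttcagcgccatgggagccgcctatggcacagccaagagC
Atp6v0c: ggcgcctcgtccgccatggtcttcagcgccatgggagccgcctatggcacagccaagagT
Hba-a2: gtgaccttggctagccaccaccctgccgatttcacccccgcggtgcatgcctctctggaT
Hba-a1: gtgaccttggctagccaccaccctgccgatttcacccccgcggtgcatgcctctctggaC
Atp6v0c-ps2 was at 541 to 924 FPKM with a median of 745 in self-administration saline, against 0.0196 to 230 with a median of 12.7 in other saline (6.15 ± 0.90, adjusted p = 2.34e-06). Atp6v0c was at 8.52 to 203 FPKM with a median of 27.7 in self-administration saline, against 609 to 945 with a median of 846 in other saline (−4.40 ± 0.42, adjusted p = 2.32e-09). Their sum was 550 to 1015 FPKM with a median of 829 in self-administration saline, against 692 to 963 with a median of 853 in other saline, a difference of −0.09 ± 0.10 on the log2 scale. The pair moved in opposite directions by more than their sum did.

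Hba-a2 was at 6.01 to 322 FPKM with a median of 41.7 in self-administration saline, against 0.0271 to 21.6 with a median of 0.056 in other saline (4.67 ± 0.55, adjusted p = 9.5e-08). Hba-a1 was at 0.0231 to 559 FPKM with a median of 0.404 in self-administration saline, against 21.6 to 247 with a median of 42.7 in other saline (−2.70). Their sum was 6.04 to 881 FPKM in self-administration saline, against 28.7 to 251 in other saline (0.27 ± 0.63). The red blood cell list, with 4 of 8 higher and 1 lower and a median of 1.22, holds such copies. Its member Alas2, the haem synthesis enzyme of erythroid cells, was at 1.19 to 72.6 FPKM with a median of 4.84 in self-administration saline, against 0.874 to 11.5 with a median of 1.61 in other saline (1.34), the highest value being that of library 4. The part of blood in these values was not tested. Oaz1 and Oaz1-ps summed to 226 to 310 FPKM in self-administration saline, against 326 to 425 in other saline (−0.53 ± 0.06). Npcd and Nptxr overlap by 15092 bases on one strand, and differed by 1.68 ± 0.27 and −4.39 ± 0.28, while their sum differed by 0.44 ± 0.06. Snurf and Snrpn share 9601 bases of one imprinted locus, and Snurf differed by 1.92 ± 0.32 while the sum differed by 0.22 ± 0.05.

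**Figure D4:**
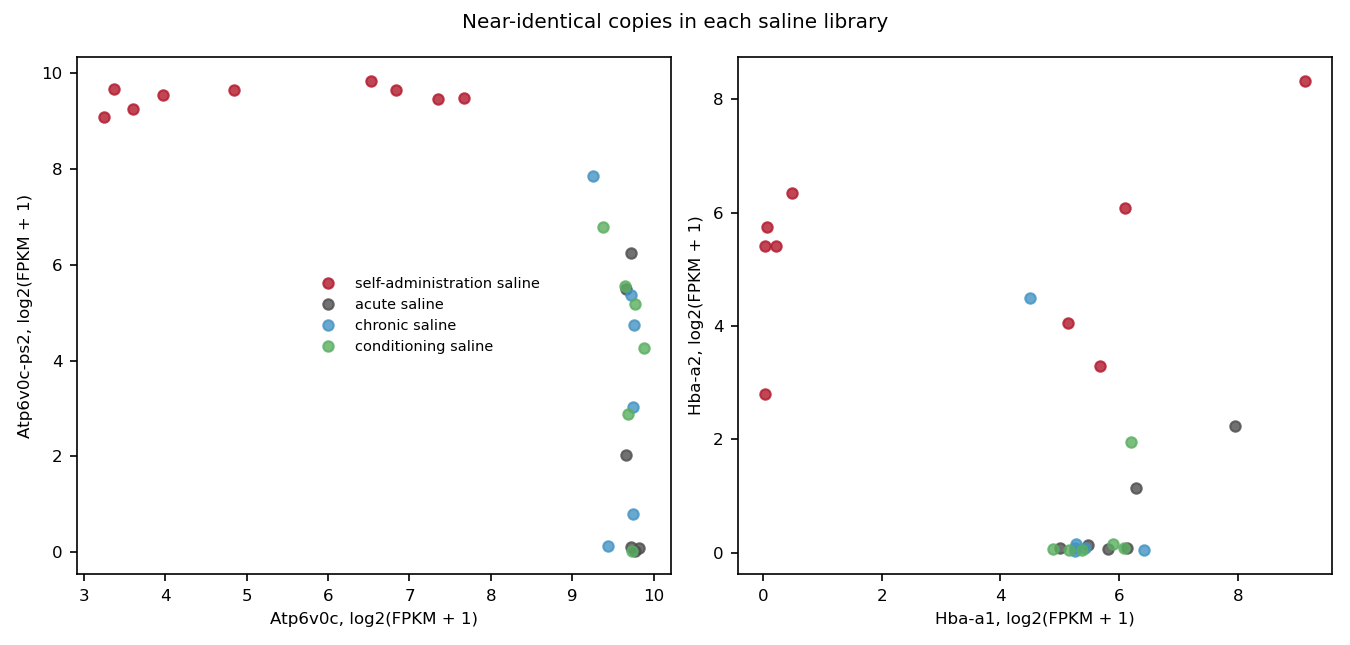
Levels of Atp6v0c-ps2 against Atp6v0c (left) and of Hba-a2 against Hba-a1 (right) in each of 27 saline libraries, both axes on the log2(FPKM + 1) scale. Red points are self-administration saline, grey, blue and green points acute, chronic and conditioning saline. Self-administration libraries lie high on the pseudogene and low on its parent gene, the others the reverse, while alpha globin libraries of self-administration spread over both axes.

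The same contrast in cocaine libraries, which share no library with the saline contrast, called 7821 of 13202 genes (59.2%), 4245 higher (32.2%) and 3576 lower (27.1%) in self-administration cocaine. Of the 7924 genes called in saline, 6793 (85.7%) were called in the same direction in cocaine and 0 in the opposite one. These are 86.9% of the genes called in cocaine. Of the 243 genes called at 2-fold or more in saline, 237 (97.5%) were called in the same direction in cocaine. Across the 13202 genes the differences had a Pearson correlation of 0.950 and a Spearman correlation of 0.943, given without a test because genes are not independent replicates and because GC content and length trend alike in both. The GC trend was similar in cocaine, with medians of 0.10 in the lowest bin and −0.33 in the highest, and after the correction 7069 of 12723 genes (55.6%) were called in cocaine, 30% higher and 25.6% lower. In 209 genes (1.58%) each self-administration cocaine library lay above each other cocaine library, and in 318 (2.41%) each lay below.

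Plin4 averaged 19.2 ± 8.10 FPKM in self-administration cocaine (SD, n = 15) and 1.44 ± 0.823 in other cocaine (SD, n = 17), a difference of 2.98 against 3.30 in saline. The glucocorticoid list was called higher in 14 and lower in 0 of 20 in cocaine, with a median of 0.61 against 0.96 in saline. Myelin genes were lower in 19 and higher in 0 of 22 in both contrasts, with a median of −0.58 in each. Opalin averaged 22.6 ± 8.91 FPKM in self-administration cocaine and 64.2 ± 8.92 in other cocaine, a difference of −1.55 against −1.19 in saline. Pmch differed by 1.27 in cocaine and 3.04 in saline, and Tac2 by 0.52 in cocaine, where it was not called, and 1.35 in saline.

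A test of the difference between the contrasts called 0 of 13202 genes by limma, with 372 at an unadjusted p under 0.05. The smallest p belonged to Sh3bp2, an adaptor protein of immune signalling, which averaged 2.75 ± 0.343 FPKM in self-administration saline (SD, n = 9) and 1.99 ± 0.156 in other saline (SD, n = 18). In cocaine it averaged 2.11 ± 0.279 FPKM in self-administration and 2.08 ± 0.270 in the other paradigms. The difference of the differences was 0.31 ± 0.06 (adjusted p = 0.116). Next came Polr3e, a subunit of RNA polymerase III (0.28 ± 0.06, adjusted p = 0.202), and Rrp8, a ribosomal RNA-processing protein (0.24 ± 0.06, adjusted p = 0.628). A p that misses the threshold does not show that the contrasts were alike for a gene.

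**Figure D5:**
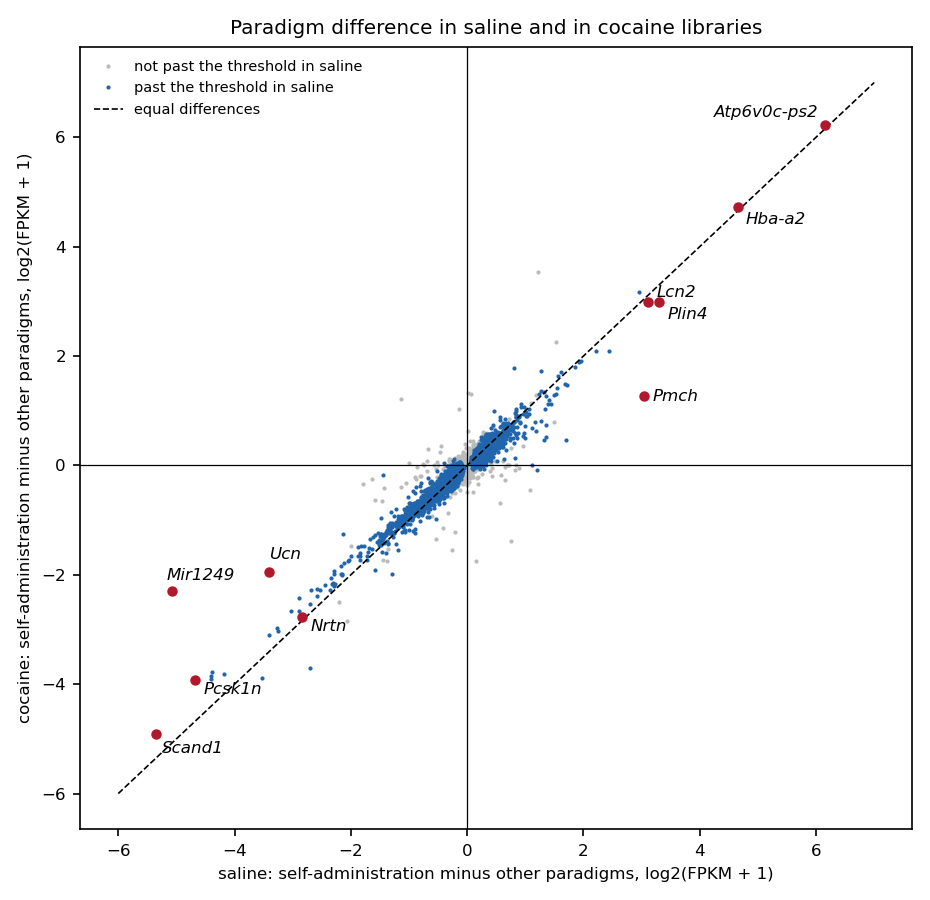
Self-administration minus other paradigms in saline libraries (x axis) and in cocaine libraries (y axis), log2(FPKM + 1) scale, 1 point for each of 13202 genes. Blue points were called in saline, grey points were not, red points are named, and the dashed line marks equal differences. Points follow the line, with Plin4 at 3.30 and 2.98, and Pmch (3.04 and 1.27) and Ucn (−3.41 and −1.95) further from it.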

How the data were processed

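Total RNA of VTA samples was extracted with an RNeasy minikit and made into libraries with a TruSeq RNA kit, per the labels' protocols. The submitters' processing notes name Bowtie, Cuffnorm and the mm10 build. For versions, annotation, scaling, strand setting and filters, the sources used here give nothing. The authors deposited FPKM per gene and library, which hold no read depth, so no counting intervals are given, and no count test was run.

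The tested genes averaged 1 FPKM or more across the 27 saline libraries and were fitted on log2(FPKM + 1) with limma 3.58.1 in R 4.3.3 (moderated by trend, robust, two-sided, Benjamini-Hochberg adjustment, threshold 0.05). Paradigm contrasts in saline, in cocaine and their difference were fitted, and the code was tested on simulated data. Transcript GC content and length came from GENCODE M21 on GRCm38, where 23310 of 24346 symbols matched (95.7%), and each library was corrected by natural splines with 5 degrees of freedom for each. Copies were aligned with Biopython 1.88. No 2 libraries held identical values.

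The comparison, its gene lists and tests were chosen with earlier results of these data known. Named were up to 15 genes per direction with the largest difference, called in the main contrast and against each saline group and at 5 FPKM or more where higher; up to 5 per direction of microRNA, snoRNA and predicted genes; 2 to 4 members per described list with the smallest p; 4 dopamine markers; and 3 genes of the contrast difference. A few genes that these rules or lists hold are not reported here, though the counts over lists include them. Other list members are named to describe a list and were chosen after their values were seen. Of the lists, 46 of 47 had tested members. The mitochondrially encoded list had 0 of 15 genes in the table, and the structured noncoding RNA list had 1 tested gene, Rpph1, which was lower (−1.39; corrected −0.27, not called). Rpph1 passed the filter on low values only through other saline.

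Alternatives were another pseudocount (0.1), no filter or a filter at 5 FPKM, rescaling, quantile normalization, library weights, equal weights for the saline groups, leaving out groups or single libraries, the correction for GC content and length, and leaving out self-administration libraries 0 and 4, which was added after seeing the data.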

Additional observations from a re-analysis of the deposited data

Results flagged for a closer look

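In 51 of 491 sets, each of 1 named gene in 1 saline group, the highest or lowest library stood apart from its group by Dixon's test, where chance flags about 1 set in 20. Values are FPKM, and no explanation was tested.

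In self-administration saline, library 8 had the highest Nrtn (0.509) and Cck (94.0), and library 1 the highest Tef (107) and Cry2 (44.6). Library 0 had the highest Gas5 (20.9) and Uty (5.47). Library 4 had the lowest Drd1 (0.808) and the highest Timp3 (71.0), and library 2 the lowest Insr (6.63) and Snora81 (9.08).

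Conditioning saline library 2 recurred, mostly at the low end of genes that were lower in self-administration. It was the lowest of its group for Scand1 (13.0), Pcsk1n (146), Nptxr (8.01), C1qtnf4 (33.9), Prr7 (7.11) and Zfp771 (17.7). The same library was lowest for Jund (37.7), Atp5d (159), Gm1673 (65.0), 4930413G21Rik (2.50) and Snora43 (listed at 0), and it was highest for Hba-a2 (2.88). Conditioning library 0 was the highest of its group for the glucocorticoid-responsive genes Zbtb16 (7.39), Fkbp5 (11.4), Sgk3 (3.23) and Hif3a (1.49), and for Sparc (633). Other conditioning libraries stood apart for Erdr1 (142, library 3), Hbb-bs (5.86, library 4) and Mir8112 (3.54, library 5).

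In acute saline, library 4 had the highest Pmch (41.4) and Parpbp (2.87), which overlap in the annotation. Library 0 had the lowest Fabp7 (42.0) and the highest En2 (18.03), Crhr1 (18.5) and Th (562). Library 5 had the highest Lcn2 (0.367) and Ly6c1 (60.9), the lowest Prr7 (9.04) and a Mir8112 listed at 0, and Mir6357 was listed at 0 in library 1.

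In chronic saline, library 5 had the highest Hba-a2 (21.6), Lcn2 (0.230) and B2m (169.8), and a Mir6357 listed at 0. Library 2 had the highest Snurf (80.7) and Sparc (529) and the lowest Fcrls (6.46) and Ddx3y (20.9). Library 0 had the lowest Pet117 (0.00179) and the highest Wdfy1 (5.79).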

How the results depend on the processing

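The count of 7924 genes ranged from 6094 (genes of at least 5 FPKM) to 9106 (library weights) over the alternatives, and from 7541 to 8070 with single libraries left out. Quantile normalization made 60.5% of calls higher, against 53.4% in the main analysis. Of 124 named genes 119 were called, and 110 of these kept their direction and call under each of 14 settings in which they were tested. Npw turned to 0.20 after the correction for GC content and length. The difference between saline and cocaine contrasts called 1 gene by quantile normalization (Sh3bp2, adjusted p = 0.0481 in limma) and 1 after the correction (Per1, 0.41 ± 0.08, adjusted p = 0.0230); the cause was not tested. Th, not called, was called without self-administration library 6 (adjusted p = 0.0349) or chronic library 2 (adjusted p = 0.0399). Calls were lost for Mir6240 without self-administration library 1, for Mir8091 without library 8 or 0, and for Snora43 without library 0, 6 or 1. No paired analysis was possible because the columns carry no replicate numbers of the labels. Read depth is unknown, so the precision of low values cannot be given, and paradigm cannot be told apart from batch.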
